A study of Mus musculus with 6 samples.

Results

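Many mouse gene models carry no descriptive name, only a placeholder that starts with Gm and a number or ends in Rik. Those described here were the Gm and Rik genes that B cells lost when they lacked hnRNPL, an RNA-binding protein that binds CA-rich RNA and acts in splicing and RNA processing. A gene was chosen when its mean over the 3 WT libraries was at least 20 normalized counts, its mean over the 3 hnRNPL-deficient libraries was at most 2/3 of the WT mean, and its highest hnRNPL-deficient value lay below its lowest WT value. Of 30697 Gm and Rik genes in the table, 4263 had a WT mean of at least 20, and 243 of these (5.70%) met the rule. The same rule turned around, with the minimum on the hnRNPL-deficient mean, found 556 gained Gm and Rik genes.

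RNA was sequenced from splenic B cells activated for 24 h with LPS at 5 µg/ml and IL-4 at 5 ng/ml and sorted as GFP+. WT cells came from CD21-cre Rosa mT/mG mice and hnRNPL-deficient cells from CD21-cre Hnrnpl F/F Rosa mT/mG mice, so both groups carried the Cre transgene and the reporter that turns GFP on where Cre has acted. There were 3 mice of each genotype, with 1 library per mouse. The mice were male and female, over 6 weeks old and of the C57BL6/J background, and CD21-cre acts mainly in mature B cells.

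Libraries held between 40395186 and 75180749 reads on genes, and mitochondrial genes took between 5.57% and 8.92% of the counts. *Hnrnpl* itself stood at 24371, 25580 and 24174 normalized counts in WT and at 2178, 1519 and 1297 in hnRNPL-deficient cells, which left 6.74% of the WT mean (log2 change −3.93, SE 0.17, limma with Benjamini-Hochberg adjusted p = 2.23e-05). All 10 B cell marker genes passed the level filter, with summed levels of 583728 to 717831 in WT and 565219 to 650606 in hnRNPL-deficient libraries. The 9 macrophage and monocyte markers summed to 260.0 to 332 in WT and 1239 to 1382 in hnRNPL-deficient libraries, nearly all of it *Adgre1* (log2 change 2.24, SE 0.15, limma adjusted p = 0.000139), while *C1qa* and *C1qb* were at 0 in every library. The part of these markers in the losses was not tested. Markers of neutrophils summed to at most 2.74 normalized counts in any library. The plasma cell gene *Jchain*, 1 of 5 plasma cell markers, fell with the losses (117, 109 and 26.0 in WT, 23.4, 7.07 and 13.7 without hnRNPL, log2 change −2.31, SE 0.63, limma adjusted p = 0.0509). The other marker genes called were higher, namely *Cr2* of B cells (log2 change 0.85), *Prf1* of NK cells (0.89), *Xcr1* of dendritic cells (1.35) and *Hbb-bt* of erythroid cells (1.82). Each of these, and *Jchain*, was the only gene called in its list. The median log2 change was 0.06 over the 10 tested B cell markers, −0.14 over the 3 of dendritic cells and −0.06 over the 5 of plasma cells. Of the NK and erythroid lists only 1 and 2 genes passed the level filter. *Xist* and Y-linked genes placed WT replicate 3 and hnRNPL-deficient replicate 2 apart from the other libraries by sex. In bulk RNA a loss in every cell and a loss of the cells that express a gene cannot be told apart.

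A pseudogene is a copy of a gene that has lost its coding function. A processed pseudogene arose when an mRNA was copied back into DNA, so it lacks introns and can resemble its parent mRNA almost base for base. Long noncoding RNAs (lncRNAs) are spliced or unspliced transcripts without a long reading frame, and many start next to, or run across, a protein-coding gene. TEC is the annotation's label for transcribed regions, mostly of a single exon, that still await experimental follow-up and have been given no class.

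All 243 lost genes were found in the annotation, on 20 chromosomes. They comprised 120 pseudogenes, 67 lncRNA genes, 22 TEC models, 21 protein-coding genes and 13 small RNA genes. The pseudogenes included 103 processed, 6 transcribed processed and 8 unprocessed copies. Among the lncRNA genes, 27 were antisense, 18 intergenic, 13 processed transcripts and 7 divergent from a promoter. Only 4 of the 155 lost genes matched in RefSeq had a different symbol there.

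In their shares of pseudogenes and lncRNA genes the lost genes lay nearer to the expressed Gm and Rik genes than the gained genes did. Pseudogenes made up 49.4% of the lost genes, 46.9% of all 4263 expressed Gm and Rik genes, and 12.8% of the gained ones. lncRNA genes held 27.6% of the lost, 20.1% of the expressed and 52.5% of the gained set. TEC models went the other way, with 9.05% of the lost, 19.5% of the expressed and 19.8% of the gained set. Seen within each type, 7.82% of the expressed lncRNA genes were lost, compared with 6.003% of the pseudogenes, 5.96% of the small RNA genes, 5.93% of the protein-coding genes and 2.64% of the TEC models. These shares describe sets chosen on the measured values and carry no test. By the rule the lost genes are a part of the expressed set. The gained genes were filtered on the hnRNPL-deficient mean and need not belong to it. The closer likeness of the lost genes to the expressed set is thus partly built into the choice.

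**Figure D1:**
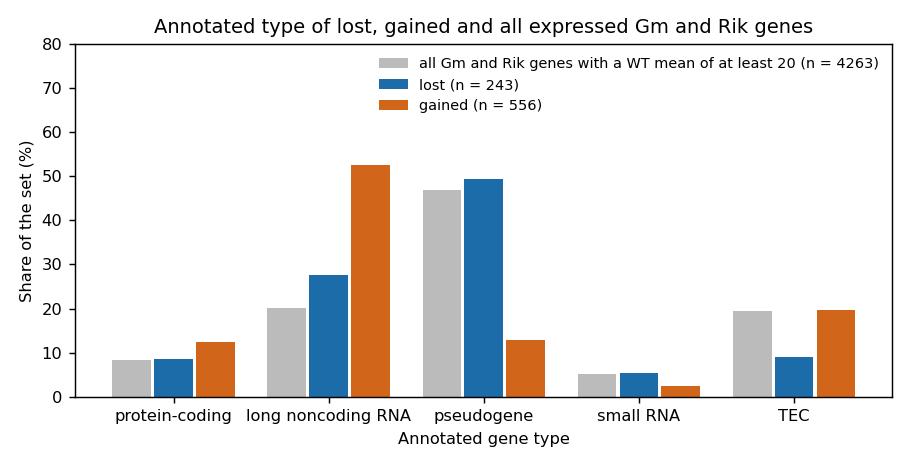
Share of each annotated gene type (y axis, %) among all Gm and Rik genes with a WT mean of at least 20 (grey), the 243 lost genes (blue) and the 556 gained genes (orange). Pseudogenes are 49.4% of the lost and 12.8% of the gained genes, and lncRNA genes are 27.6% of the lost and 52.5% of the gained genes.

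WT means of the lost genes ran from 20.07 to 49625 normalized counts, with a median of 73.9. The share left in hnRNPL-deficient cells ran from 5.86% to 66.4% of the WT mean, with a median of 55.7%. Most losses were therefore moderate. At most 50% of the WT mean was left for 81 genes, and at most 25% for 9. The median share left was 51.8% for TEC models, 52.0% for lncRNA genes, 56.8% for pseudogenes, 60.0% for protein-coding genes and 60.1% for small RNA genes.

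Across all genes, limma tested 17640, of which 719 (4.08%) were lower and 1284 (7.28%) higher in hnRNPL-deficient cells (adjusted p under 0.1 and a change of at least 1.5-fold). All 243 lost genes were tested, 127 of them were called lower and 0 higher. The rule used the same contrast, so nothing is read from that count. Leaving out 1 library at a time brought it to between 36 (without WT replicate 3) and 89. The median log2 change was −0.85 for the lost genes and −0.03 for all genes tested.

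**Figure D2:**
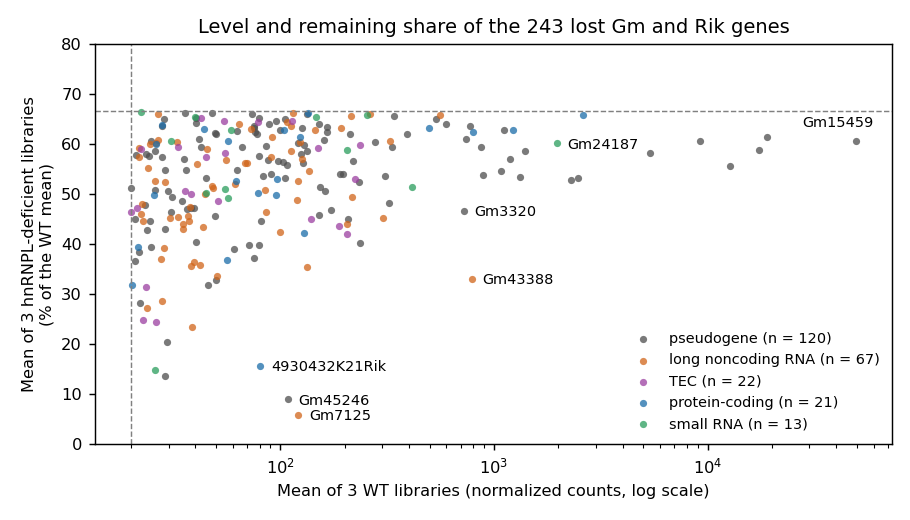
Each point is 1 of the 243 lost genes, with the mean of the 3 WT libraries on the x axis (normalized counts, log scale) and the mean of the 3 hnRNPL-deficient libraries as % of the WT mean on the y axis. Dashed lines mark the thresholds of the rule, a WT mean of 20 and 2/3 of the WT mean. The 9 genes with at most 25% left include Gm7125 (5.86%), Gm45246 (8.96%) and 4930432K21Rik (15.7%).

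Several genes lay close to the thresholds. Just inside the ratio were *Gm25687* (66.4% of WT left), *4930526A20Rik* (66.3%) and *4930539J05Rik* (66.2%). Just outside it were *Gm7002* and *Gm9644* (66.7% each) and *Gm17494* (66.8%). *Gm43372* (WT mean 20.07), *Gm16550* (20.09) and *Gm4869* (20.3) just met the level minimum, while *4930413G21Rik* (19.98), *4921516A02Rik* (19.8) and *Gm44729* (19.7) just missed it.

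WT replicate 1 stood apart for pseudogenes. It held the highest of the 3 WT values in 81 of the 120 lost pseudogenes (67.5%), close to the 68.3% of all expressed Gm and Rik pseudogenes and above the 43.0% of all tested genes. For the lost lncRNA genes that share was 40.3%, with 24.6% among the expressed lncRNA genes. Without this library, 84 of the 120 pseudogenes still met the rule, as did 60 of 67 lncRNA genes, 21 of 22 TEC models, 19 of 21 protein-coding genes and 9 of 13 small RNA genes. The part of WT replicate 1 in the losses was not tested beyond those counts. Among the hnRNPL-deficient libraries, replicate 2 held the lowest value in 63 of the 120 lost pseudogenes, replicate 3 in 40 and replicate 1 in 17.

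Pseudogenes were the largest class, so the sequences of a few pseudogenes and their parent genes are shown first, as read from GENCODE transcripts on GRCm38. The lost pseudogene with the smallest share left, *Gm45246* (chr8:97876154-97876520, plus strand), matched *Hnrnpl* itself over its whole length at 94.1% identity. A stretch of 90 bases of the *Hnrnpl* coding sequence (bases 1104 to 1193) is set beside the matching bases of *Gm45246* (chr8:97876187-97876276, GRCm38), in which capitals mark the 3 bases that differ.
Hnrnpl: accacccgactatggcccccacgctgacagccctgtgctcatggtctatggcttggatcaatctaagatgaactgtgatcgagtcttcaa
Gm45246: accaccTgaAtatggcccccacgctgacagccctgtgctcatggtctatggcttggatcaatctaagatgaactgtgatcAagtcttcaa

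A second set comes from *Hspa8*, which encodes the constitutive heat shock cognate chaperone HSC70 and had 8 lost copies, as many as any parent. The coding stretch from base 565 to 654 is given with 3 of its copies: *Gm15459* (chr5:5782902-5782991, minus strand), *Gm8326* (chromosome 1) and *Gm15604* (chr1:10555398-10555487, minus strand). Capitals mark the bases that differ from *Hspa8*, which number 0, 2 and 10.
Hspa8: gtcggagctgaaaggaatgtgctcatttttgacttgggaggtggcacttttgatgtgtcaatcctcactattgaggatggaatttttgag
Gm15459: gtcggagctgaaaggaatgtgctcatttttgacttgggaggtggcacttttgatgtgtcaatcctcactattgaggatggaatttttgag
Gm8326: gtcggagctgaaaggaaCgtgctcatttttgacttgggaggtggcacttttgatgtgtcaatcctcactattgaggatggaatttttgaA
Gm15604: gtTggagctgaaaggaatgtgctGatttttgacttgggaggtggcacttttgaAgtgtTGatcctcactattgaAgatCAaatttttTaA

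A read of 100 bases from the *Hspa8* mRNA that falls in such a stretch is also a read of *Gm15459*, and the way reads with several equally good positions were counted is not given in the sources used here. Reads of a pseudogene and of its parent therefore cannot be told apart where both mates fall on identical sequence. The levels of copy and parent may then not be independent of each other.

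Of the 120 lost pseudogenes, 112 matched a protein-coding transcript at 80% identity or more over at least 50% of their length, and these pointed to 84 parent genes. Identity ran from 81.2% to 100%, with a median of 95.6%. In 62 pairs the longest identical run was at least 100 bases, the length of a read, and the median longest run was 109.5 bases. Such a run can hold a single read but need not hold its mate, so the 62 is not a count of pairs that cannot be told apart. The 8 without such a match were *Gm15433*, *Gm2666*, *B330016D10Rik*, *D630033A02Rik*, *Gm10571*, *Gm8818*, *Gm37348* and *Gm47006*.

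Some of the parents were themselves called lower in hnRNPL-deficient cells. All 84 were tested, 20 (23.8%) were called lower and 0 higher, beside 4.08% of all tested genes called lower. Parents of the expressed Gm and Rik pseudogenes that were neither lost nor gained were called lower in 10 of 731 cases (1.37%) and higher in 6. Parents of gained pseudogenes were called higher in 4 of 30 cases (13.3%) and lower in 0. These sets were sorted by the level of the copy, which can share reads with its parent. The shares of called parents are thus not independent of the rule, and their contrast may follow in part from the choice of copies. A parent's log2 change lay below 0 in 106 of the 112 lost pairs, beside 1426 of the 1755 tested pairs whose pseudogene was neither lost nor gained. Parents with several copies recur in these pairs, which came from 84 and 731 tested parents. Without hnRNPL-deficient replicate 3 the count of lower parents was 13.

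Parent and copy moved most alike where their sequences were most alike. In the 32 pairs with at least 98% identity, the median share left was 57.8% for the pseudogene and 63.6% for the parent. Of their 26 parents, 14 were called lower. At 95 to 98% identity the medians were 60.3% and 78.1%, with 4 of 29 parents called lower. At 90 to 95% they were 54.2% and 75.4%, with 6 of 25 parents called lower. At 80 to 90% they were 53.2% and 86.5%, with 1 of 17 parents called lower. The median absolute difference between the log2 changes of copy and parent was 0.15, 0.38, 0.47 and 0.72 in these classes, in the same order. In pairs whose pseudogene was neither lost nor gained it was 0.07, 0.13, 0.18 and 0.26. The order by identity was thus not particular to the lost pairs. Levels differed between the classes as well. WT means of the lost pseudogenes ran from 20.1 to 49625 at 98% identity or more, and from 21.2 to 127 at 80 to 90%. The part of level in the order was not tested. The pseudogenes were chosen for their loss, so their own median was bound to lie below 2/3 in every class.

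**Figure D3:**
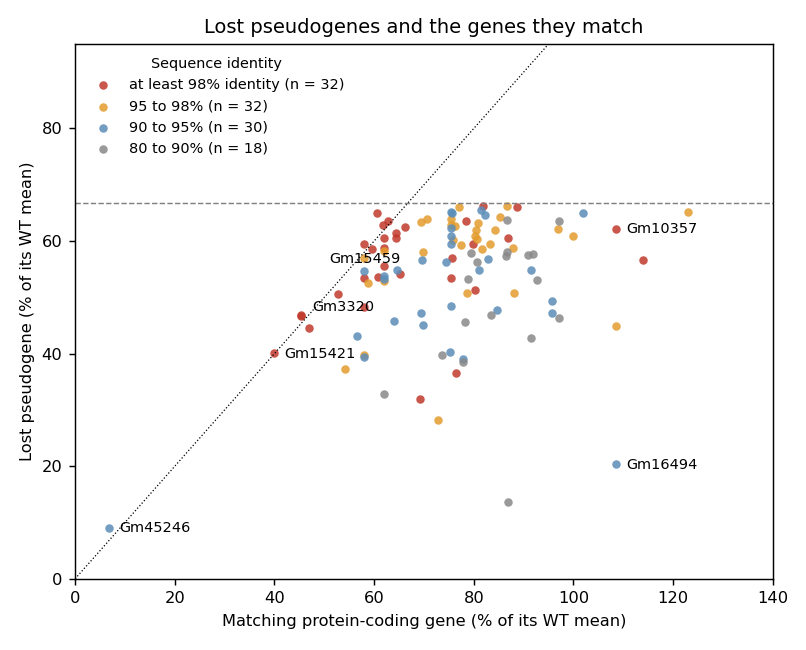
Each point is 1 of the 112 lost pseudogenes with a matching protein-coding gene, placed by the share of the WT mean left for the parent (x axis, %) and for the pseudogene (y axis, %). Colours give the sequence identity, the dotted line marks equal shares and the dashed line the 2/3 threshold of the rule. Pairs of at least 98% identity lie nearest the dotted line, with medians of 63.6% for the parent and 57.8% for the pseudogene, and 3 pairs of Hmgn2 lie at 109% on the x axis.

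*Gm45246* carried 162, 70.0 and 92.5 normalized counts in WT and 16.2, 6.06 and 6.85 in hnRNPL-deficient libraries. All 3 hnRNPL-deficient values lay far below the lowest WT value, and WT replicate 1 was the highest. The 8.96% left for *Gm45246* stood beside the 6.74% left for *Hnrnpl*, and the longest identical run between them was 119 bases.

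*Hspa8* fell to 61.9% of the WT mean (log2 change −0.70, SE 0.14, limma adjusted p = 0.0176). Its 8 copies (*Gm15459*, *Gm8355*, *Gm6210*, *Gm7232*, *Gm8326*, *Gm8337*, *Gm7899* and *Gm15604*) had 86.7% to 99.7% identity, and between 32.8% and 60.6% of their WT means was left. *Gm15459* (chr5:5781615-5783555) was the highest of all lost genes, with 49228, 52021 and 47627 normalized counts in WT and 30906, 35394 and 23845 in hnRNPL-deficient libraries. Its identical run with *Hspa8* was 672 bases long. *Gm15604*, the least similar copy, stood at 78.9, 35.4 and 35.2 in WT and at 18.9, 4.04 and 26.0 without hnRNPL, so its low share rested on far fewer counts.

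Other chaperone parents included *Hsp90aa1* and *Hspd1*, which encode HSP90 alpha and the mitochondrial HSP60. *Hsp90aa1* fell by 0.62 on the log2 scale (SE 0.18, limma adjusted p = 0.0565) and its copies *Gm12346* and *Gm5844* retained 61.5% and 60.5%. In both copies and in the parent WT replicate 1 was the highest library, at 24177 against 17218 and 15700 for *Gm12346*. *Hspd1* fell by 0.75 (SE 0.14, limma adjusted p = 0.0142), and 58.6% was left for its copy *Gm47750*. *Hsp90ab1*, which encodes HSP90 beta and was chosen after its values were seen, stood at 78.2% of WT and was not called (limma adjusted p = 0.105), while 45.7% was left for its copy *Gm7198* at 86.9% identity.

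*Sp140* encodes a nuclear body protein of lymphoid and myeloid cells with a chromatin-reading domain, and its level fell to 58.0% of the WT mean (log2 change −0.79, SE 0.09, limma adjusted p = 0.00191). It had 7 lost pseudogene copies, and *A530032D15Rik*, annotated as protein-coding, matched it as well, at 97.4% identity. Between 39.3% and 62.8% was left for these 8 genes. Of them, *Gm2389*, *Gm18342*, *A530032D15Rik* and *Gm6264* lay within 100 kb of the next on chromosome 1, with *Gm15433* upstream, and *Gm2427* sat farther along beside *Gm2666*. *Gm2427*, an unprocessed pseudogene with 9 exons, stood at 1489, 1222 and 1281 in WT and at 731, 707 and 698 without hnRNPL.

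Some parents fell by more. *Mybl2*, a transcription factor of proliferating cells, fell by 1.17 (SE 0.16, limma adjusted p = 0.00344), and its copies *Gm3320* and *Gm50184* retained 46.7% and 46.9%, beside 45.3% for the parent. *Gm3320* stood at 759, 661 and 749 in WT and at 345, 397 and 270.0 in hnRNPL-deficient libraries. *Rpl22l1*, which encodes a ribosomal protein paralog, fell by 1.32 (SE 0.17, limma adjusted p = 0.00262). Its copy *Gm15421* retained 40.1% and the parent 39.8%. *Tsnax*, chosen after its values were seen, fell by 0.89 (SE 0.12, limma adjusted p = 0.00298), while 37.2% was left for its unprocessed copy *Gm8010*, at 65.0, 82.1 and 78.0 in WT and 34.3, 30.3 and 19.2 without hnRNPL.

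Other copies were lost while the parent was not called. *Hmgn2*, which encodes a nucleosome-binding protein, stood at 8435, 7080 and 6168 in WT and at 9065, 8347 and 6116 in hnRNPL-deficient libraries, a log2 change of 0.11 (SE 0.17, limma adjusted p = 0.712). Its 3 lost copies *Gm10357*, *Gm6724* and *Gm16494* retained 62.1%, 44.9% and 20.4%. *Gm10357* had 99.6% identity to *Hmgn2*, with an identical run of 170 bases, and stood at 304, 470 and 397 in WT and 299, 250 and 177 without hnRNPL. The highest hnRNPL-deficient and the lowest WT value of *Gm10357* were thus close together. *Gm16494* stood at 16.2, 32.0 and 40.5 in WT and at 4.51, 4.04 and 9.60 without hnRNPL. A stretch of *Hmgn2* coding sequence (bases 14 to 103) and the matching bases of *Gm10357* (chr13:8290016-8290105, minus strand) are given to show that no base differed.
Hmgn2: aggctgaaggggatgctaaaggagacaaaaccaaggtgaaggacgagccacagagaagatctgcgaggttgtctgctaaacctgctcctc
Gm10357: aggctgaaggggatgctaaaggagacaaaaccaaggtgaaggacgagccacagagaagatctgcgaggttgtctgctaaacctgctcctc

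Several other parents had more than 1 lost copy. *Phgdh*, the first enzyme of serine synthesis, had 4 (62.4% to 65.1% left, parent 75.5%). *Eif4a3* of the exon junction complex had 3 (58.7% to 66.1%, parent 81.6%), of which *Gm5580* and *Gm8994* are annotated as protein-coding. *Ppia*, which encodes cyclophilin A, had 3 (53.1% to 66.2%, parent 86.6%). *Actg1*, *Hnrnpc*, *Rangrf*, *Rpl17*, *Rpl26*, *Rps7* and *Snrpf* had 2 each. For the ribosomal protein genes *Rpl17*, *Rpl26* and *Rps7*, the parents stood at 95.6%, 91.4% and 97.0% of WT, and 42.7% to 63.6% was left for the copies. Copies of 1 parent may share reads, so neither copies nor pairs are separate observations of a loss.

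Unprocessed pseudogenes with low counts included *Gm8493*, chosen after its values were seen, at 23.2, 28.5 and 35.2 in WT and 2.705, 9.09 and 0 without hnRNPL (13.6% left). Its best match was *Ppp2r3d*, at only 83.9% identity, which stood at 86.9% of WT. *Gm7281* retained 39.7% and *Gm17816* 39.02%. Single-exon models were 75.0% of the lost and 88.3% of the expressed pseudogenes.

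The lncRNA with the highest WT mean was *Gm43388*, an intergenic gene (chr16:19212660-19236776, minus strand). It stood at 744, 853 and 760.1 in WT and at 218, 204 and 358 in hnRNPL-deficient libraries, so 33.1% was left. *B930036N10Rik* (65.8%), *4833438C02Rik* (60.7%), *Gm11131* (45.2%), *4930513N10Rik* (66.0%) and *Gm37634* (49.3%) came next. The 3 WT values of *4833438C02Rik*, 333, 313 and 333, lay much closer together than their distance to 191, 211 and 192. *Gm11131* (chr17:35377021-35380292), antisense to an MHC class I gene, stood at 330, 307 and 275 in WT and at 149, 119 and 144 without hnRNPL.

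*Gm7125* (chr15:68792320-68883576, plus strand), an intergenic lncRNA gene, had the smallest share left of all 243 genes. Its WT values were 19.7, 168 and 176, and its hnRNPL-deficient values were 9.02, 4.04 and 8.22. WT replicate 1 was thus far nearer to the hnRNPL-deficient libraries than to the other WT libraries, and the SD of the WT values, 87.9, was close to their mean of 121. *Gm43672* (27.9, 60.5 and 62.7 in WT against 22.5, 13.1 and 15.1) had a similar order of the WT values. *Gm46620* (35.4% left) and the TEC model *Gm10524* (43.5%) lay 111 bases apart on the same strand of chromosome 18.

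**Figure D4:**
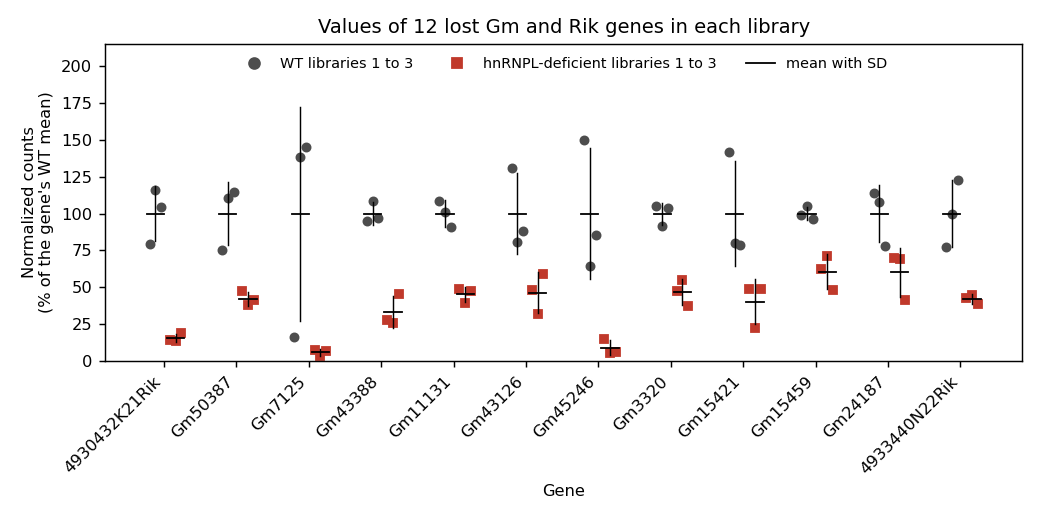
Normalized counts of 12 lost genes in each library as % of the gene's WT mean (y axis), with WT libraries 1 to 3 as circles and hnRNPL-deficient libraries 1 to 3 as squares from left to right, and bars for the mean with SD. No square lies above a circle of the same gene, and Gm7125 shows WT replicate 1 far below the other WT libraries.

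Among the protein-coding members, *4930432K21Rik* (chr8:84148025-84172590, plus strand) retained the smallest share. RefSeq lists it with the synonym Brme1, a factor of meiotic recombination. It stood at 63.8, 93.4 and 84.1 in WT and at 11.7, 11.1 and 15.1 without hnRNPL, with 15.7% left and a wide gap between the groups. Less than 100 kb away on the same chromosome lay *C330011M18Rik* (57.3% left), and beyond it *1700067K01Rik* (36.9%). *Gm50387* (42.2%), *4930590J08Rik* (49.8%), *A130010J15Rik* (62.4%) and *1600014C10Rik* (63.2%) were also lost.

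*Gm12355* had the highest WT mean of the protein-coding members, at 3533, 2187 and 2139 in WT and 2105, 1417 and 1657 without hnRNPL. RefSeq calls it Srsf3-ps, a pseudogene of the splicing factor gene *Srsf3*, and it matched *Srsf3* at 98.3% identity. *Srsf3* itself stood at 78.8% of WT and was not called (limma adjusted p = 0.0892, change under 1.5-fold). *Gm5580*, at 137, 137 and 129 in WT and 87.5, 80.8 and 98.7 without hnRNPL, is listed in RefSeq as Eif4a3l2. The group gap for *Gm12355* was narrow, from 2105 to 2139, while that of *Gm5580* was wider than the spread within either group.

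The small RNA genes were 4 snoRNA, 4 miRNA, 3 misc_RNA, 1 scaRNA and 1 snRNA models. The libraries were made from polyadenylated RNA, and reads of such a short model cannot be told apart from those of a longer transcript that spans it on the same strand. *Gm24187*, of miRNA type, was the highest at 2247, 2130 and 1538 in WT and 1383, 1363 and 811 without hnRNPL. *Gm24245* followed (51.4% left), then *Gm24514* (65.7%) and *Gm22748* (58.8%), a snoRNA model inside *Odc1*. *Gm44456*, a miRNA model chosen after its values were seen, retained 14.9%, from 46.4, 16.4 and 15.3 in WT to 7.21, 3.03 and 1.37.

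Of the TEC models, *5730488B01Rik* (59.9% left), *Gm4430* (53.0%), *4933440N22Rik* (42.0%), *Gm10524*, *Gm42600* (59.2%) and *Gm45133* (44.98%) had the highest WT means. *4933440N22Rik* stood at 159, 206 and 253 in WT and at 87.5, 92.9 and 79.5 in hnRNPL-deficient libraries. Its hnRNPL-deficient values were close together, while the WT values spread more widely. *Gm42638* retained 48.7%.

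hnRNPL is known to bind CA repeats, so the spliced transcripts were searched on the sense strand for runs of 8 bases of alternating C and A, ACACACAC or CACACACA. Such a run was present in 15 of the 67 lost lncRNA genes (22.4%), beside 180 of the 857 expressed Gm and Rik lncRNA genes and 28.4% of the gained ones. Among TEC models the shares were 22.7% of the lost, 28.1% of the expressed and 27.3% of the gained. Pseudogenes had a run in 5.00% of the lost, 5.15% of the expressed and 19.7% of the gained set. The median transcript length of these pseudogenes was 686, 639 and 1061 bases, and the part of length in the shares was not tested. For protein-coding Gm and Rik genes it was 2 of 21 (9.52%) lost and 21.8% expressed, and no small RNA member held one. In the lncRNA genes and pseudogenes the lost set thus held the motif about as often as the expressed set. A match is a description of the letters and not a binding site. The 3 longest runs are shown with up to 20 bases on either side, with the run in capitals.
Gm9530: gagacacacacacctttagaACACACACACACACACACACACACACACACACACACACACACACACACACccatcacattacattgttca
Gm42829: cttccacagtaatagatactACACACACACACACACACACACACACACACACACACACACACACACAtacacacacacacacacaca
Gm45242: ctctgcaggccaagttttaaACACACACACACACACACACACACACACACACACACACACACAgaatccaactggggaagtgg

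*Gm9530*, an lncRNA gene with a run of 50 bases, stood at 26.7, 24.2 and 20.7 in WT and at 7.21, 8.08 and 4.11 without hnRNPL (27.1% left). *Gm42829* (run of 47 bases) retained 57.1% and the TEC model *Gm45242* (43 bases) 47.2%. The members with the longest runs thus had low to moderate counts and different shares left.

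The levels of protein-coding neighbours were not used by the rule. A neighbour was a named protein-coding gene whose body overlapped a lost gene or whose start lay within 5 kb of its start. Such neighbours were found for 119 lost genes, and of these 140 neighbours 110 could be tested. Of the tested neighbours, 13 (11.8%) were called lower and 5 (4.55%) higher, beside 4.08% and 7.28% of all tested genes. Their median log2 change was −0.15. Neighbours of expressed Gm and Rik genes that were neither lost nor gained were called lower in 60 of 1532 cases (3.92%) and higher in 66 (4.31%). Neighbours of gained genes were called lower in 20 of 393 cases and higher in 48 (12.2%). Most neighbours of lost genes were therefore not called in either direction.

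By position, opposite-strand overlaps had 9 lower and 2 higher of 65 tested neighbours, divergent starts 3 and 1 of 23, same-strand overlaps 0 and 2 of 17, and other same-strand neighbours 1 and 0 of 6. The class of divergent starts holds all neighbours on the opposite strand without overlap. Whether such a pair points apart or together was not checked. For a same-strand overlap, reads of the neighbour can fall into the lost gene's exons. The counting used strand, which separates the members of an opposite-strand pair except for reads that carry the wrong strand.

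**Figure D5:**
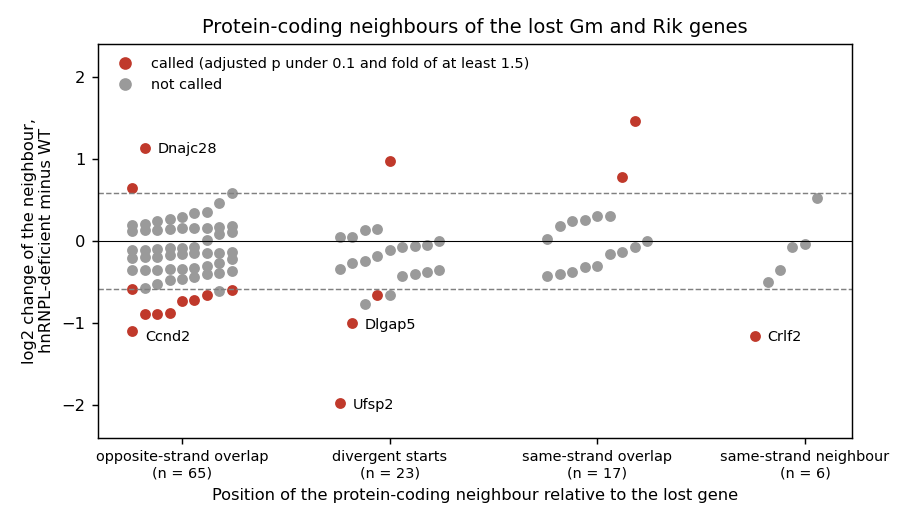
Each point is 1 protein-coding neighbour of a lost gene, with its log2 change between hnRNPL-deficient and WT libraries on the y axis and its position relative to the lost gene on the x axis (a gene in 2 positions is drawn in both). Red points passed the test (limma adjusted p under 0.1 and a change of at least 1.5-fold, dashed lines), and Ufsp2 at −1.98 is the lowest.

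*Ufsp2*, which encodes a protease that matures the ubiquitin-like protein UFM1, fell furthest. It stood at 1713, 1544 and 1527 in WT and at 420.1, 373 and 418 without hnRNPL (log2 change −1.98, SE 0.12, limma adjusted p = 8.94e-05). Its start lies 276 bases from that of the lost protein-coding *1700029J07Rik*, which runs the other way and retained 60.6%. The neighbour thus fell by more than the lost gene.

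*Ccnd2*, which encodes the G1 cyclin D2, overlaps the antisense lncRNA gene *Gm43126*. *Ccnd2* stood at 190356, 152627 and 143519 in WT and at 85346, 73939 and 67868 without hnRNPL (log2 change −1.09, SE 0.15, limma adjusted p = 0.00344). *Gm43126* stood at 113, 69.2 and 75.7 in WT and at 41.5, 27.3 and 50.7 without hnRNPL. The shares left were 46.7% and 46.4%, and WT replicate 1 was the highest library for both. The WT means were 162167 for *Ccnd2* and 85.8 for *Gm43126*. Whether *Ccnd2* reads that carry the wrong strand made up part of the *Gm43126* level was not tested.

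Other lower neighbours had varied roles. *Hmga1*, an architectural chromatin protein, fell by 0.89 (SE 0.14, limma adjusted p = 0.00624), and *Gm49774* on the opposite strand, whose start is 21 bases away, retained 35.7%. *Hnrnpd*, which encodes the AU-rich element binding protein AUF1, fell by 0.66 (SE 0.11, limma adjusted p = 0.00703) beside *Gm17092*. *H2-Q4*, an MHC class I gene, fell by 0.73 (SE 0.12, limma adjusted p = 0.00791) beside *Gm11131*.

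*Slc20a1*, a phosphate transporter gene, fell by 0.59 (limma adjusted p = 0.00526) beside *Gm4430*, and *Coro2a*, an actin-binding coronin gene, by 0.90 (limma adjusted p = 0.000808) beside *Gm16731*. *Arhgef12* fell by 0.89 (limma adjusted p = 0.0141) around *Gm5831*, an *Sp140* copy that lies within it. *Cacybp* fell by 0.66 (limma adjusted p = 0.0642), its start 68 bases from that of *4933417C20Rik*, and *Comtd1* by 0.60 (limma adjusted p = 0.0811) beside *A430057M04Rik*. The other lower neighbours, chosen after their values were seen, were *Crlf2* (−1.16), *Dlgap5* (−1.01) and *Zfp367* (−0.73).

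Higher neighbours went against the lost gene beside them. *Dnajc28* rose by 1.13 (SE 0.26, limma adjusted p = 0.0264) on the strand opposite *Gm15964*. *Ccdc28a* (0.97), *Mei4* (0.78) and *Chst15* (0.64), chosen after their values were seen, were also higher.

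Of the neighbours that were not called, those beside the most highly expressed lost genes were *Ssh2* (log2 change 0.30), *Traf3ip3* (0.18), *Alyref2* (−0.10), *Napepld* (−0.35), *Nfkb2* (−0.23) and *Cnot1* (−0.09). *Nfkb2*, an NF-κB subunit gene, stood at 5241, 7329 and 6323 in WT and 5187, 6564 and 4442 without hnRNPL, with groups that overlapped. The lost *4833438C02Rik*, which overlaps it on the other strand, had groups that did not. The signs for *Traf3ip3*, *Alyref2* and *Cnot1* each changed under 1 other setting and were read as no direction.

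Lost genes lay close together in a few places. Within 100 kb of another were 24 of the 243, in 10 clusters. *Gm7899*, an *Hspa8* copy on chromosome 3, and *Gm37348* overlap on opposite strands, with 53.8% and 44.5% left. In *Gm37348* WT replicate 1 was the highest library at 122, against 57.1 and 65.8.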

How the data were processed

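The authors prepared poly(A)-selected, strand-specific libraries, sequenced as paired 100-base reads, trimmed them with fastp 0.23.1, aligned them to mm10 with STAR 2.7.9a, counted reads with featureCounts on GENCODE annotation and scaled the counts with DESeq2 1.38.2. The deposited values are size-factor-normalized counts (a signal, not raw counts) for 55421 genes in 6 libraries; the authors' columns of mean, fold change and p-values were not used. Replicates are separate mice.

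Members and lists were chosen with earlier results of these data known. limma 3.58.1 (R 4.3.3) with a mean-variance trend was run on log2(value + 1) over all genes whose mean reached 10. Calls needed a p under 0.1 after Benjamini-Hochberg adjustment, together with a fold change of 1.5 or more. With 3 against 3 libraries an exact permutation test of 1 gene cannot go below 0.1, so no such test is given. A simulated set of 200 genes changed 4-fold was tested on 17640 genes, and limma recovered 198, with 18 false calls. The median log2 change of the lost genes was smaller, at −0.85. Recovery at less than 4-fold was not tested. Dividing each library by the value of 1 read gave numbers within 0.1 of a whole number in all 6 libraries. A separate automatic check of the file recovered whole reads in 5, so edgeR 4.0.16 and DESeq2 1.42.0 were run as alternatives without hnRNPL-deficient replicate 2. Gene types, neighbours and transcripts came from a GENCODE release for GRCm38 older than the one the authors used. Pseudogene transcripts were matched to protein-coding transcripts with blastn 2.17.0 (80% identity over 50% of the length). Named genes were, per annotated type, the 6 with the highest WT mean and the 4 with the lowest share left among those with a WT mean of at least 50, the 3 genes on either side of each threshold, the 12 called and 6 uncalled neighbour pairs and the 10 parent pairs with the highest member level, up to 10 pairs with a called parent, and members sharing a parent or lying within 100 kb. The closing section gives the effect of other pseudocounts, filters, scalings, tests and left-out libraries. The values of 1 neighbour are not reported here.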

Additional observations from a re-analysis of the deposited data

How the results depend on the processing

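The rule found 243 genes, and 190, all among the 243, when the libraries were scaled to equal totals. It found 383 with quantile normalization (238 shared), 144 with a WT mean of at least 50, 81 when at most 50% of the WT mean was allowed, and 469 with overlapping groups allowed. With 1 library left out, between 193 (without WT replicate 1) and 237 (without hnRNPL-deficient replicate 1) of the 243 still met the rule. Leaving out 1 library at a time gave 256 to 526, with over 1.5 times as many without WT replicate 2 (526), hnRNPL-deficient replicate 1 (396) or hnRNPL-deficient replicate 3 (414), since fewer libraries make non-overlap easier to meet. The 127 members called lower became 84 without a filter on low values, 33 at an adjusted p under 0.05 and 2-fold, 59 with edgeR and 80 with DESeq2 on 5 libraries, and 36 to 89 with 1 library left out (75 without WT replicate 1, 60 without WT replicate 2, 36 without WT replicate 3, 81 and 67 without hnRNPL-deficient replicates 1 and 2). The cause was not tested. The labels do not say whether mice of the same number were paired. Deviations of same-numbered libraries from their group means correlated at 0.43, 0.32 and 0.07. WT replicate 3 correlated better with hnRNPL-deficient replicate 2 (0.31) than with its own number. The other libraries correlated best with their own number. With the replicate number as a block, 192 members were called, with 1018 genes lower and 1755 higher among all tested.

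The 20 lower parents became 13 with quantile normalization, 4 at the stricter threshold and 13 to 23 with 1 library left out (13 without hnRNPL-deficient replicate 3); the count of higher parents was 0 under every setting, limma, edgeR and DESeq2 included. The 13 lower neighbours became 4 at the stricter threshold and ranged from 11 to 13 with 1 library left out. The 5 higher neighbours became 1 at the stricter threshold, 3 with starts within 1 kb or opposite-strand overlap only, 8 with the nearest gene within 100 kb, and 2 to 5 with 1 library left out (2 without WT replicate 3, 3 without WT replicate 2, hnRNPL-deficient replicate 1 or hnRNPL-deficient replicate 3). Among all genes the stricter threshold left 216 lower and 610 higher, and leaving out 1 library gave 478 to 696 and 830 to 1111, the lowest without WT replicate 3. The sign changed for *Cnot1* with quantile normalization (log2 change 0.051), for *Traf3ip3* without WT replicate 1 (−0.0013, up to 0.30 with another library left out) and for *Alyref2* without WT replicate 2 (0.058, down to −0.26). *Hnrnpl* stayed called in all 17 alternatives, between −4.14 and −3.76.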
